A study of Mus musculus with 36 samples.

Results

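The 10 genes described here encode liver enzymes that build triglyceride: Gpam, Agpat2, Agpat3, Lpin1, Lpin2, Lpin3, Dgat1, Dgat2, Mogat1 and Mogat2. They were found as the array probes, other than controls, whose gene name in the scanner files equals one of these symbols, which gave 25 of 56605 probes and 10 of 37061 genes. All 10 genes passed the filter on dim probes, as did 24097 genes in the whole series. RNA was measured in mouse liver on 36 single-colour Agilent arrays in 6 groups of 6. AAKO mice, of the C57Bl/6J strain, lack ATGL (adipose triglyceride lipase, the Pnpla2 product, which starts the breakdown of stored fat) in their white fat, and CTRL mice are their controls. The fed groups ate freely and the fasted groups had no food for 24 h. The CL316243 groups were fed and received this beta 3 adrenergic agonist, a stimulus of adipocyte lipolysis, as 1 dose of 3 mg/kg by gavage at Zeitgeber time 10. All mice were males kept on a standard diet and were killed at Zeitgeber time 16. The driver of the deletion, the alleles carried by CTRL mice and the age of the animals are not given in the sources used here.

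Triglyceride is made by adding fatty acyl chains to a glycerol backbone. In the glycerol phosphate pathway, GPAM (mitochondrial glycerol-3-phosphate acyltransferase) adds the first chain and the AGPAT enzymes add the next to give phosphatidate. Lipins then remove the phosphate to give diacylglycerol, and DGAT1 and DGAT2 add the last chain. MOGAT1 and MOGAT2 make diacylglycerol by another route, from monoacylglycerol. Lipin 1 is also known as a nuclear coactivator of fatty acid oxidation genes in liver and as a gene that fasting and glucocorticoids induce there. Between meals the liver receives fatty acids released by lipolysis in adipose tissue.

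The results turn on the lipins, so their sequences are shown first. Lpin1 was read by 4 probes. Probes 1 and 2 lie close together in the gene, and probes 3 and 4 lie far from them and from each other. The probes are given here as the first 30 bases of each 60-base probe, 5′ to 3′, in order of brightness, with the mm9 position of the whole probe on the minus strand. The exon or untranslated region that holds each probe was not annotated here.
Lpin1 probe 1, chr12:16543023-16543082, from base 5018 of its transcript: tatatgggtaccatacatttcaaagttgct
Lpin1 probe 2, chr12:16543695-16543754, from base 4346: aggtctcatgtggtccacatagttcacagg
Lpin1 probe 3, chr12:16571310-16571369, from base 1338 of another transcript: atggaccctgaagtggcagccctgtatttc
Lpin1 probe 4, chr12:16587593-16587652, from base 255: agctctacaagggactgaaccccgccacgc

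The 250 bases before the annotated transcript starts of the 3 lipins are taken from RefSeq on GRCm38.p6, because all 3 lipins were called higher in fasted AAKO liver. The table held 11 such starts for 7 of the 10 genes, 6 of them of lipins. The 4 lipin windows printed are those that held a match to a motif searched, and the windows of the other two, Lpin2 start 2 and Lpin3 start 2, held none. The start given for Lpin1 lies inside the span annotated for the gene, 16535669 to 16653903. Capitals mark matches, on either strand, to CACGTG (E box), TGACGTCA (cyclic AMP response element), its first bases TGACG (a shorter form of it), GTAAACA (FOXO site), TGTTCT (part of a glucocorticoid response element), TATAAA (core promoter box) or CCAAT (upstream promoter box).
Lpin1, chr12:16610967-16611216, minus strand: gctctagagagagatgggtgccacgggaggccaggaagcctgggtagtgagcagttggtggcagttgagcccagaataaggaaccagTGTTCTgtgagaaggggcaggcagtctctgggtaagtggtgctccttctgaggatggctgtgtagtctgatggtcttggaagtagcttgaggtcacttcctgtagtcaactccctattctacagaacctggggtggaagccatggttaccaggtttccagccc
Lpin2 start 1, chr17:71183282-71183531, plus strand: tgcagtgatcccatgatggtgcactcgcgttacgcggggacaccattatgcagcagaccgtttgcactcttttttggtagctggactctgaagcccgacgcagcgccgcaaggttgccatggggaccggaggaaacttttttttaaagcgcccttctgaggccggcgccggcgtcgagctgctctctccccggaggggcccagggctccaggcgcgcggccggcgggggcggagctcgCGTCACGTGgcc
Lpin2 start 3, chr17:71204404-71204653, plus strand: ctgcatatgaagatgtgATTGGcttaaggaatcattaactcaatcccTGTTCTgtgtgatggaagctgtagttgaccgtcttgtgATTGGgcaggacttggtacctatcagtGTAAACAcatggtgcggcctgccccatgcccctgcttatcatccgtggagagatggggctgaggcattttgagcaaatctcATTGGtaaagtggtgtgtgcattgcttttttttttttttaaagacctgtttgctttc
Lpin3 start 1, chr2:160880420-160880669, plus strand: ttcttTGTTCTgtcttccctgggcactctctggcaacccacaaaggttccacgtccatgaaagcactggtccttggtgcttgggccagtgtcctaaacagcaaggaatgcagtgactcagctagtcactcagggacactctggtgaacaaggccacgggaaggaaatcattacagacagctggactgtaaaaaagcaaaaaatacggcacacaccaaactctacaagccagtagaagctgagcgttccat

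These matches describe letters and not bound sites. TGTTCT was found 163 bases before the Lpin1 start, 203 before Lpin2 start 3 and 245 before Lpin3 start 1, and 16.1% of the 32851 windows of this length in the table hold it. CACGTG was found 9 bases before Lpin2 start 1, where it overlaps TGACG on the other strand, and the shares of windows that hold these are 6.02% and 17.8%. GTAAACA, held by 3.17% of windows, was found 138 bases before Lpin2 start 3, which also had CCAAT on the other strand at 233, 165 and 57 bases (33.8% of windows). Neither TGACGTCA (1.55% of windows) nor TATAAA (12.4%) was found in any of the 11 windows of these genes.

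Levels below are log2 signals minus the 75th percentile of the array, so 0 is the brightness of that percentile, and levels of different probes are not comparable with each other. Differences are on the log2 scale with a standard error (SE), from limma fitted over all 24097 genes with 6 arrays a group. A gene is called at an adjusted p (Benjamini-Hochberg) under 0.05. All 8 hepatocyte markers checked were well above background on every array, and liver RNA cannot check a deletion in adipose tissue. Liver Pnpla2 itself was 1.30 ± 0.19 higher in AAKO than CTRL after the fast (limma, adjusted p = 8.25e-07). Array 2 of CTRL fasted stood apart: on the first principal component over all genes it lay at 80.9, between the other 5 of its group (16.7 to 28.9) and AAKO fasted (102.3 to 110.3). In array 6 of AAKO CL316243 the summed level of 4 skeletal muscle markers was 6.94, against -0.80 or lower on every other array. Where leaving out either array ended a call, the value without it is given. Nothing in the labels says that the arrays of a group came from separate animals, so p-values measure the spread between these samples. In whole liver, fewer cells of a type and less RNA per cell cannot be told apart. The labels place all fed arrays in another experiment than all fasted and CL316243 arrays. Fasting or CL316243 therefore cannot be told apart from experiment in any comparison with a fed group. Below, a rise, fall or response against the fed group names the difference only and does not assign it to the treatment.

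In freely fed mice none of the 10 genes was called between genotypes by limma, while 2 of them, Gpam and Mogat1, had an unadjusted p under 0.05. No share of all genes is given for that unadjusted count, nor for that of the pathway list below. Of all tested genes 0.0788% were called (0.0415% higher and 0.0373% lower in AAKO). After the fast 7 of the 10 were called (49.2% of all genes): Lpin1, Lpin2, Lpin3 and Dgat2 were higher in AAKO (4 genes, against 21.9% of all) and Agpat2, Agpat3 and Mogat1 were lower (3 genes, against 27.3%). After CL316243 4 of the 10 were called (24.6%), and all 4, Gpam, Agpat2, Lpin2 and Mogat1, were lower in AAKO (11.6% of all genes were lower and 13% higher). Under array median scaling 5 were called and under quantile normalisation 6, all of them lower. The median difference of the 10 genes was 0.20 after the fast and -0.39 after CL316243, and that of all genes was -0.03 and 0.03. AAKO and CTRL arrays were fully separated for 1 of the 10 genes in the fed state, 5 after the fast and 3 after CL316243, and the shares over all genes were 0.693%, 21.2% and 11.3%.

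**Figure D1:**
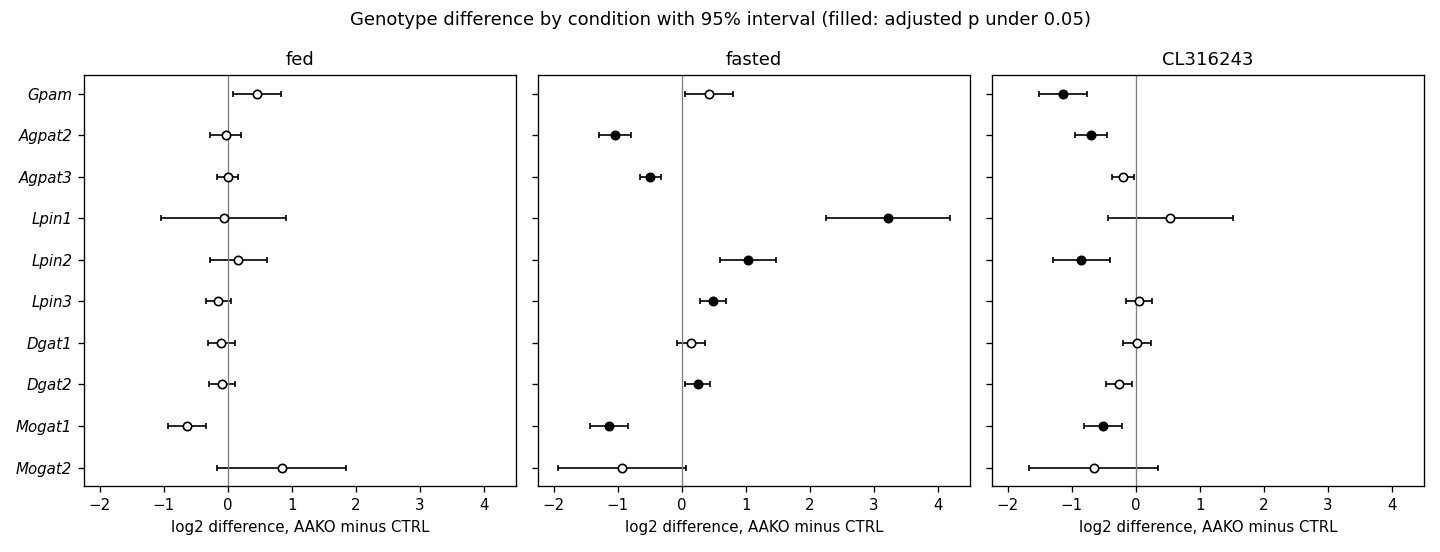
Log2 difference AAKO minus CTRL of the 10 genes (horizontal axis) in fed, fasted and CL316243-treated mice, 6 arrays a group; points are fitted differences, bars 95% intervals, filled points have an adjusted p under 0.05. After the fast Lpin1 lies at 3.22, far to the right of the other genes, and after CL316243 the filled points all lie to the left of 0.

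Lpin1 had the largest genotype difference of the 10 genes after the fast. Its level was 7.03, 7.09 and 7.30 (lowest, median and highest) in AAKO fasted liver and 2.74, 3.52 and 6.60 in CTRL fasted liver. All 6 AAKO arrays lay above all 6 CTRL arrays, and the AAKO group spread little (SD 0.105, n = 6) while the CTRL group spread widely (SD 1.48, n = 6). The difference was 3.22 ± 0.48 (SE), a fold of 9.30 (limma, adjusted p = 1.31e-06). The highest CTRL value came from the array 2 that stood apart, and without it the difference was 3.74 (limma, adjusted p = 3.74e-09). The labels also give 2 wash batches that hold arrays of every group: within batch 1 the difference was 4.23 and within batch 2, which holds array 2, it was 2.20. In the other conditions the genotypes overlapped. Fed arrays read 2.60, 4.08 and 4.69 for CTRL and 2.53, 3.96 and 4.93 for AAKO. The CL316243 groups read 2.60, 3.49 and 3.98 (CTRL) and 2.65, 4.05 and 5.00 (AAKO). The intervals of these differences were wide, from -1.04 to 0.91 (95%) in the fed state and from -0.44 to 1.52 after CL316243.

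The 4 Lpin1 probes shown above gave the same picture after the fast. From probe 1 to probe 4 the AAKO minus CTRL difference was 3.22, 3.38, 3.69 and 2.24. At probe 3, which reads another transcript, AAKO fasted arrays lay between 3.29 and 3.89 and CTRL fasted arrays between -1.10 and 2.50. Probe 4, near the transcript start, read 0.19 to 0.53 in AAKO and -2.82 to -0.27 in CTRL. In fed mice the differences at the 4 probes ran from -0.07 to 0.10.

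The Lpin1 difference between fasted and fed mice, which belong to different experiments, itself differed between genotypes. In AAKO mice Lpin1 was 3.27 ± 0.48 higher after the fast than in the fed state (limma, adjusted p = 4.37e-07), with no overlap. In CTRL mice the change was -0.01 ± 0.48 and its 95% interval ran from -0.99 to 0.96. The difference between these responses was 3.28 ± 0.67 (limma interaction, adjusted p = 0.000289). It was 4.56 within wash batch 1 and 2.01 within batch 2, where it was not called (adjusted p = 0.157). The CTRL change itself turned with the batch, from -1.31 in batch 1 to 1.28 in batch 2. The CTRL fasted arrays of batch 1 read 2.74, 2.93 and 2.79, and those of batch 2 read 4.11, 6.60 and 4.29. Probe 3 differed from the other 3 probes here, at 1.24 ± 0.41 for fasted over fed CTRL mice (limma over all probes, adjusted p = 0.0154) against -0.10 to 0.18. Array 2 read 2.50 at this probe and the other CTRL fasted arrays -1.10 to -0.30. Without array 2 the probe 3 difference was 0.71 ± 0.32 and not called (limma, adjusted p = 0.0716), and those of the other 3 probes ran from -0.65 to -0.15.

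**Figure D2:**
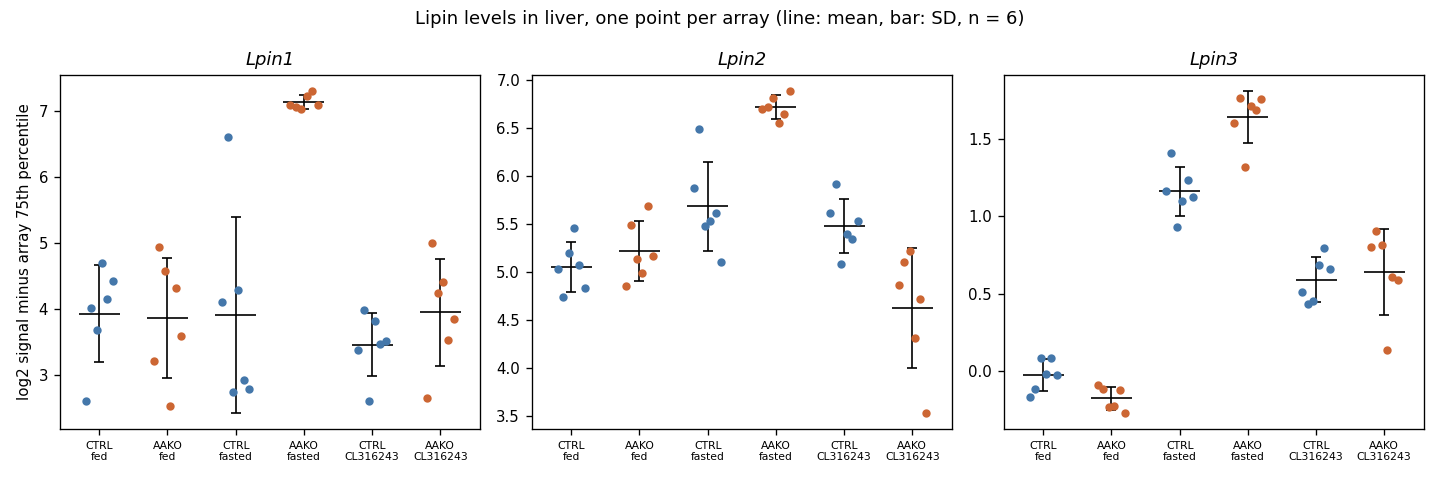
Levels of Lpin1, Lpin2 and Lpin3 (vertical axis, log2 signal minus the 75th percentile of the array) in the 6 groups, with 1 point per array, the mean as a line and the SD as a bar (n = 6). All 6 AAKO fasted points of Lpin1 lie above 7, and 1 CTRL fasted point at 6.60 lies near them.

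Lpin2, the lipin that liver is known to express strongly, was higher in AAKO after the fast and lower after CL316243. After the fast its level was 6.55, 6.71 and 6.89 in AAKO and 5.10, 5.57 and 6.49 in CTRL, without overlap. The difference was 1.04 ± 0.22, or 2.05-fold (limma, adjusted p = 0.000169). After CL316243 its level was 3.54, 4.79 and 5.22 in AAKO and 5.08, 5.46 and 5.91 in CTRL, which overlapped. Here AAKO was lower by a difference of -0.85 ± 0.22 (limma, adjusted p = 0.00387). The lowest value, 3.54, came from array 6 with the muscle markers, and without it the difference was -0.64 (limma, adjusted p = 0.014). Within wash batches 1 and 2 the fasted difference was 1.41 and 0.67 and the CL316243 difference -0.995 and -0.65, and in batch 2 neither was called (adjusted p = 0.0680 and 0.222).

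Between the fasted and CL316243 states the genotype difference of Lpin2 changed by 1.89 ± 0.31 (limma interaction, adjusted p = 1.72e-05). Fasted levels were above fed levels by 0.63 ± 0.22 in CTRL (limma, adjusted p = 0.0182) and by 1.50 ± 0.22 in AAKO (limma, adjusted p = 3.48e-07). In CTRL this call was lost without array 2 of the fasted group (0.46, limma, adjusted p = 0.0761). Over all 6 Lpin2 probes the fasted genotype difference ran from 0.20 to 1.04 and the CL316243 difference from -1.02 to -0.00. The interaction of genotype and fasting was 0.87 ± 0.31 for Lpin2 (limma, adjusted p = 0.0263), and within wash batches 1 and 2 it was 1.27 and 0.48, neither of them called. Over the 6 probes it ran from -0.02 to 0.89, and 3 were called. The call was lost with the mean of the probes (0.60, limma interaction, adjusted p = 0.151). Leaving out single arrays, such as CTRL fasted replicate 6, also ended it (0.75, limma interaction, adjusted p = 0.0569).

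**Figure D3:**
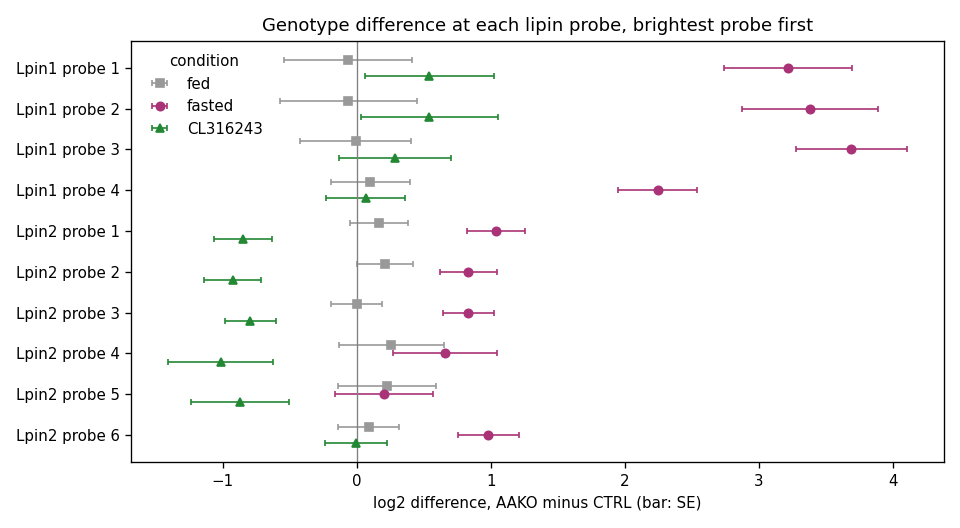
Log2 difference AAKO minus CTRL (horizontal axis, bars SE) at the 4 probes of Lpin1 and the 6 of Lpin2, in fed (squares), fasted (circles) and CL316243-treated (triangles) mice. All Lpin1 circles lie between 2.24 and 3.69, and the Lpin2 circles lie between 0.20 and 1.04.

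Lpin3, another phosphatidate phosphatase of the family, was higher in every challenged group than in the fed group of its genotype. Fed levels were -0.16, -0.02 and 0.08 for CTRL and -0.27, -0.17 and -0.09 for AAKO. The fasted groups read 0.93, 1.14 and 1.41 (CTRL) and 1.32, 1.70 and 1.76 (AAKO). The CL316243 groups read 0.44, 0.58 and 0.80 (CTRL) and 0.14, 0.70 and 0.91 (AAKO). No fasted or CL316243 array overlapped the fed arrays of its genotype. The rise from the fed to the fasted group was 1.19 ± 0.10 in CTRL and 1.81 ± 0.10 in AAKO. Fed and fasted groups belong to different experiments. The AAKO rise was greater by 0.63 ± 0.14 (limma interaction, adjusted p = 0.000691). Fasted AAKO exceeded fasted CTRL by 0.48 ± 0.10 (limma, adjusted p = 0.000145), and the ranges overlapped at the lowest AAKO array. Its rise with CL316243 was 0.62 ± 0.10 in CTRL and 0.81 ± 0.10 in AAKO (limma, adjusted p = 2.72e-05 and 1.95e-07). A second, dimmer Lpin3 probe was well above background on 9 arrays, 5 of them AAKO fasted. Its genotype difference after the fast was 0.98 (limma over all probes, adjusted p = 0.0311). The excess of the AAKO rise with fasting was 0.60 there, not called (limma over all probes, adjusted p = 0.418). With the mean of both probes this excess was 0.61, not called (limma interaction, adjusted p = 0.0857). Within wash batch 2 the brighter probe gave 0.57, not called (limma interaction, adjusted p = 0.0917).

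Some markers of other cells also differed between genotypes after the fast. Of 6 neutrophil markers 4 were higher in AAKO than CTRL after the fast, as were 21.9% of all genes, and their summed level was 3.48 to 6.97 in AAKO and 1.68 to 6.34 in CTRL, with the highest CTRL value on array 2. Of 5 endothelial markers 3 were higher, with sums of 4.97 to 5.27 in AAKO and 4.11 to 5.20 in CTRL. All 6 neutrophil markers were well above background on every AAKO fasted array. When fed, the neutrophil sums were 1.74 to 5.56 in AAKO and 1.77 to 2.97 in CTRL, and none of these markers was called. None of them was called in the interaction of genotype and fasting. Of 4 cholangiocyte markers 1 was lower and of 6 macrophage markers none was called. Of 5 intestinal epithelium markers 2 were tested and 1 was lower, with sums of 2.98 to 4.20 in AAKO and 5.87 to 6.84 in CTRL. Of 7 adipocyte markers 1 was higher and 2 were lower. After CL316243 none of the neutrophil markers and 1 of the endothelial markers was called between genotypes. The part of these cells in the lipin result was not tested.

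Upstream of the lipins, Gpam was lower in AAKO after CL316243, Agpat3 after the fast and Agpat2 in both states. Gpam, which catalyses the first step, was at 3.87, 4.23 and 4.77 in AAKO after CL316243 and at 5.08, 5.38 and 5.62 in CTRL, without overlap. The difference was -1.14 ± 0.19, a fold of 2.20 (limma, adjusted p = 2.58e-05), and -1.27 and -0.89 within wash batches 1 and 2. The other Gpam probe gave -1.06. After the fast Gpam was at 5.25, 5.58 and 6.12 in AAKO and 4.75, 5.20 and 5.52 in CTRL. That difference of 0.43 ± 0.19 was not called (limma, adjusted p = 0.0559), while the other, dimmer probe gave 1.11 and was called (limma over all probes, adjusted p = 0.00016). Gpam was called here under 7 of 15 other settings, among them the mean of its probes (0.77, limma, adjusted p = 0.00163), quantile normalisation (0.45, limma, adjusted p = 0.0393) and the authors' deposited values (0.46, limma, adjusted p = 0.0282). It was also called without array 2 of CTRL fasted (0.50, limma, adjusted p = 0.0286). Within wash batches 1 and 2 it was 0.68 and 0.17, neither of them called. Fed levels were 5.79, 5.94 and 6.87 in AAKO and 5.35, 5.49 and 6.25 in CTRL. The genotype difference after CL316243 departed from the fed difference by -1.60 ± 0.26 (limma interaction, adjusted p = 0.000101).

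Agpat2, whose loss causes lipodystrophy in humans and mice, was lower in AAKO in both challenged states. After the fast it was at 5.95, 6.29 and 6.46 in AAKO and 6.91, 7.33 and 7.62 in CTRL. After CL316243 it was at 5.94, 6.39 and 6.64 in AAKO and 6.80, 7.0004 and 7.23 in CTRL. Neither pair overlapped. The differences were -1.04 ± 0.12 (limma, adjusted p = 1.99e-08) and -0.69 ± 0.12 (limma, adjusted p = 7.11e-05), and the second Agpat2 probe gave -1.11 and -0.70. Within wash batch 2 the CL316243 difference was -0.46 and not called (adjusted p = 0.102). Fed arrays read 7.15, 7.26 and 7.54 for CTRL and 7.01, 7.32 and 7.46 for AAKO, which overlapped, and CTRL fasted liver differed from CTRL fed liver by -0.01 ± 0.12. The genotype effect of the fast and that of CL316243 each departed from the fed difference, by -1.004 ± 0.172 and -0.66 ± 0.17 (limma interactions, adjusted p = 3.21e-05 and 0.0111).

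Agpat3, another acyltransferase of lysophosphatidate and other lysophospholipids, was higher in fasted than in fed CTRL liver. CTRL levels were 5.49, 5.68 and 5.93 when fed and 6.29, 6.39 and 6.45 when fasted, a rise of 0.67 ± 0.08 (limma, adjusted p = 4.46e-08). Fasted AAKO arrays, at 5.67, 5.93 and 6.01, all lay below fasted CTRL arrays. Their difference was -0.49 ± 0.08 (limma, adjusted p = 7.02e-06), and -0.49 within each wash batch. For fasted against fed AAKO mice the 2 Agpat3 probes disagreed in direction, at 0.19 ± 0.08 for the brighter (limma, adjusted p = 0.0453) and -0.20 for the other, so that value carries no direction for the gene. After CL316243 Agpat3 was at 5.72, 5.90 and 6.27 in CTRL and 5.50, 5.76 and 5.86 in AAKO, which overlapped. That difference of -0.20 ± 0.08 was not called (limma, adjusted p = 0.0681), while the second probe gave -0.40 and was called (limma over all probes, adjusted p = 0.000126). The gene was called under 5 of 15 other settings, among them the mean of its probes (-0.30, limma, adjusted p = 0.000473) and quantile normalisation (-0.24, limma, adjusted p = 0.0229), and within wash batches 1 and 2 it was -0.34 and -0.05, neither of them called.

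**Figure D4:**
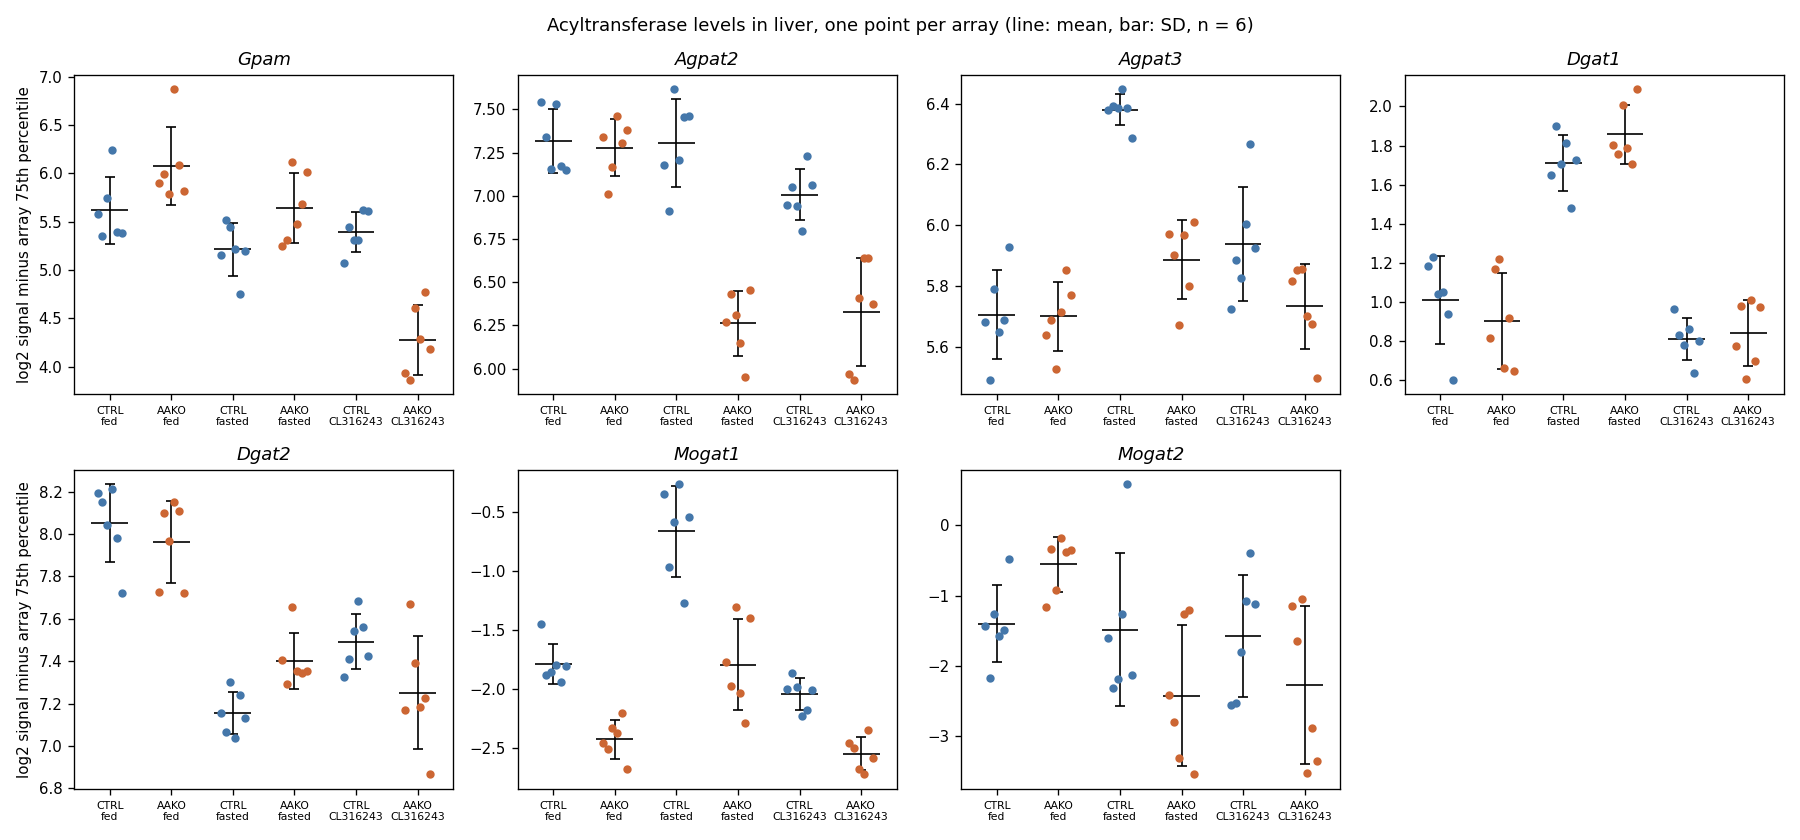
Levels of Gpam, Agpat2, Agpat3, Dgat1, Dgat2, Mogat1 and Mogat2 (vertical axes, log2 signal minus the 75th percentile of the array, each with its own range) in the 6 groups, with 1 point per array, the mean as a line and the SD as a bar (n = 6). The AAKO points of Mogat1 lie below the CTRL points in each condition, and the Dgat1 points separate by fasting and not by genotype.

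The enzymes of the last step differed in opposite directions between the fasted and fed groups. Dgat1 was at 0.60, 1.05 and 1.23 in CTRL fed liver and 1.48, 1.72 and 1.90 in CTRL fasted liver. In AAKO it was at 0.65, 0.87 and 1.22 when fed and 1.71, 1.79 and 2.09 when fasted. Fasted arrays lay above fed arrays in both genotypes, and the rise was 0.70 ± 0.11 in CTRL and 0.95 ± 0.11 in AAKO (limma, adjusted p = 1.86e-06 and 2.14e-09). Between genotypes Dgat1 differed by 0.14 ± 0.11 after the fast and 0.02 ± 0.11 after CL316243, with 95% intervals from -0.07 to 0.36 and -0.20 to 0.24.

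Dgat2, the other diacylglycerol acyltransferase, was lower in all challenged groups than in the fed group of its genotype. Its level was 7.72, 8.10 and 8.21 in CTRL fed and 7.04, 7.14 and 7.30 in CTRL fasted liver. In AAKO it was 7.72, 8.03 and 8.15 when fed and 7.29, 7.35 and 7.66 when fasted. After CL316243 it was 7.33, 7.48 and 7.69 in CTRL and 6.87, 7.20 and 7.67 in AAKO. No challenged array overlapped the fed arrays of its genotype. From the fed to the fasted group Dgat2 differed by -0.90 ± 0.10 in CTRL and -0.56 ± 0.10 in AAKO. From the fed to the CL316243 group it differed by -0.56 ± 0.10 and -0.73 ± 0.10. Fasted AAKO exceeded fasted CTRL by 0.25 ± 0.10 (limma, adjusted p = 0.0375). That call was lost when any of 7 of the 12 arrays was left out, array 2 of CTRL fasted among them (0.24, limma, adjusted p = 0.0555), with the lowest difference without AAKO fasted replicate 3 (0.20, limma, adjusted p = 0.0992). After CL316243 AAKO differed from CTRL by -0.26 ± 0.10, which was not called (limma, adjusted p = 0.0518). That difference was called under quantile normalisation (-0.32, limma, adjusted p = 0.0208) and in the authors' deposited values (-0.32, limma, adjusted p = 0.0260).

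The monoacylglycerol route was read at lower signals. Mogat1, which is known to rise in fatty liver, was at -1.94, -1.83 and -1.45 in CTRL fed and -2.68, -2.42 and -2.21 in AAKO fed liver. After the fast it was at -1.27, -0.56 and -0.26 in CTRL and -2.29, -1.87 and -1.31 in AAKO. After CL316243 it was at -2.23, -2.00 and -1.86 in CTRL and -2.73, -2.54 and -2.35 in AAKO. All AAKO arrays lay below all CTRL arrays in each of the 3 conditions. The differences were -0.64 ± 0.15 when fed (limma, adjusted p = 0.0912, not called), -1.13 ± 0.15 after the fast (limma, adjusted p = 1.11e-07) and -0.52 ± 0.15 after CL316243 (limma, adjusted p = 0.00855). With a normexp background and quantile normalisation the CL316243 difference was -0.21 and not called (limma, adjusted p = 0.0850), and within wash batches 1 and 2 it was -0.38 and -0.71, neither of them called. Mogat1 was higher in fasted than in fed liver of both genotypes, by 1.13 ± 0.15 in CTRL and 0.63 ± 0.15 in AAKO (limma, adjusted p = 1.52e-07 and 0.000328). Both other probes of Mogat1 failed the filter on dim probes.

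Mogat2, the main enzyme of this step in intestine, varied widely within groups. Its level ran from -2.31 to 0.58 in CTRL fasted liver and from -3.54 to -1.21 in AAKO fasted liver. Fed AAKO arrays lay between -1.16 and -0.19, and all 6 fasted AAKO arrays lay below them. In AAKO mice Mogat2 was lower after the fast by a difference of -1.86 ± 0.49 and after CL316243 by -1.68 ± 0.50 (limma, adjusted p = 0.00147 and 0.00940), while the second, dimmer probe gave -0.83 and -0.21. In CTRL mice the differences were -0.08 ± 0.49 and -0.18 ± 0.49, with 95% intervals from -1.09 to 0.92 and -1.18 to 0.83. The fasting response differed between genotypes by -1.78 ± 0.70 (limma interaction, adjusted p = 0.0481). The second probe gave -0.25. The call was lost when any of 17 of the 24 arrays was left out, with the smallest difference without CTRL fasted replicate 5 (-1.33, limma, adjusted p = 0.106), and under 6 of 15 other settings. Within wash batch 1 the value was -3.14, and within batch 2 it was -0.42 and not called (limma, adjusted p = 0.782).

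Fasting and CL316243 were also compared with feeding within each genotype. In CTRL mice 6 of the 10 were called between the fasted and fed groups (43.8% of all genes), 5 higher (19.7%) and 1 lower (24.1%). The 5 were Agpat3, Lpin2, Lpin3, Dgat1 and Mogat1, and the 1 was Dgat2. In AAKO mice all 10 were called (63.6%), 6 higher (27.5%) and 4 lower (36.1%), with Lpin1 added to those higher and Gpam, Agpat2 and Mogat2 added to those lower. The 6 include Agpat3 by its brighter probe only, since its other probe was lower, and 5 were higher without it. Without array 2 of CTRL fasted, Gpam was called lower in CTRL too (-0.48, limma, adjusted p = 0.0451). The Gpam call, -0.43 ± 0.19 (limma, adjusted p = 0.0418), was lost under quantile normalisation (-0.25, limma, adjusted p = 0.224) and without AAKO fed replicate 4 (-0.28, limma, adjusted p = 0.169), and the other Gpam probe gave -0.00. Both comparisons set experiment 1 against experiment 2 of the labels, so fasting and experiment cannot be told apart in them. An effect of experiment shared by both genotypes cancels in the interaction of genotype and fasting, where 6 of the 10 were called (33.6%): Lpin1, Lpin2 and Lpin3 above 0, and Agpat2, Agpat3 and Mogat2 below 0. Under quantile normalisation or array median scaling the split was 4 above and 2 below, since Dgat2 was called and Mogat2 was not. Without array 2 of CTRL fasted, Mogat1 was called below 0 as well (-0.55, limma interaction, adjusted p = 0.0378). Marker genes moved in the same comparisons. Macrophage markers were lower after the fast for 3 of 6 in CTRL and 4 of 6 in AAKO, with sums of 4.68 to 6.13 and 4.16 to 6.35, against 5.17 to 6.34 and 5.88 to 6.62 when fed. Cholangiocyte markers were lower for 3 of 4 in each genotype, and 4 of 6 neutrophil and 3 of 5 endothelial markers were higher in AAKO. Of 7 adipocyte markers 2 were lower in CTRL and 3 in AAKO, and 1 was higher in each. Their sums were 3.49 to 4.84 in CTRL fasted and 4.08 to 5.53 in AAKO fasted liver. When fed they were 6.62 to 8.56 in CTRL and 6.74 to 8.05 in AAKO. These sums are weighted to the brightest markers, and the median difference over the 7 was -0.38 in CTRL and -0.23 in AAKO. The part of these cells was not tested.

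After CL316243, against the fed groups, 3 of the 10 were called in CTRL (23.1%) and 6 in AAKO (31.4%). In CTRL 2 were higher (10.4%), Agpat3 and Lpin3, and Dgat2 was lower (12.7%). The Agpat3 difference, 0.23 ± 0.08 (limma, adjusted p = 0.0360), was not called under array median scaling (0.22, limma, adjusted p = 0.0559), so the split there was 1 and 1. Agpat2 in CTRL, at -0.31, was not called (limma, adjusted p = 0.0642). Its second probe was called lower (-0.52, limma over all probes, adjusted p = 0.00452), as was the mean of its probes (-0.41, limma, adjusted p = 0.0127). In AAKO Lpin3 alone was higher (15.5%) and 5 were lower (15.9%): Gpam, Agpat2, Lpin2, Dgat2 and Mogat2. The Lpin2 difference, -0.59 (limma, adjusted p = 0.0369), was lost without array 6 of the treated AAKO group (-0.38, limma, adjusted p = 0.136), which left 4 lower. Gpam had the largest of these differences, -1.82 ± 0.19 (limma, adjusted p = 8.91e-09), and its fed and treated AAKO arrays did not overlap. The interaction of genotype and CL316243 called 3 of the 10 (10.9%), Gpam, Agpat2 and Lpin2, all below 0. Over the 6 Lpin2 probes it ran from -1.27 to -0.09, and 2 were called. The Lpin2 call was lost with the mean of its probes (-0.90, limma interaction, adjusted p = 0.0683). It was also lost without single arrays, among them CTRL CL316243 replicate 2 (-0.92, limma interaction, adjusted p = 0.0559). Neither Lpin2 nor Agpat2 was called within either wash batch. The fed groups again belong to the other experiment, and gavage is recorded for the treated mice only, so neither can be told apart from CL316243 here. Macrophage markers were lower after CL316243 for 4 of 6 in CTRL and 6 of 6 in AAKO, with sums of 4.07 to 5.56 and 5.00 to 5.54 in the treated groups, and all 6 were well above background on every array. Endothelial markers were lower for 4 of 5 in CTRL and 2 of 5 in AAKO, and stellate cell markers for 3 of 5 in each. Their part in these differences was not tested.

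Fasted and CL316243-treated mice lay within 1 experiment. In CTRL 5 of the 10 differed between these states (37.1%): Agpat3, Lpin3, Dgat1 and Mogat1 were higher in the fasted group, and Dgat2 was lower by -0.34 ± 0.10 (limma, adjusted p = 0.00678). In the authors' deposited values the Dgat2 difference was -0.26 and not called (limma, adjusted p = 0.0504) while Agpat2 was called, so the split there was 5 and 0. Agpat2 was also called without array 2 of CTRL fasted (0.37, limma, adjusted p = 0.0187). In AAKO 6 were called (60%), all higher in the fasted group: Lpin1 by 3.13 ± 0.48, Lpin2 by 2.09 ± 0.22, Gpam by 1.39 ± 0.19, Dgat1 by 1.02 ± 0.11, Lpin3 by 1.00 ± 0.10 and Mogat1 by 0.77 ± 0.15. Of all 24097 genes 6235 were called higher and 8214 lower in this comparison. Under quantile normalisation 8 of the 10 were called, all higher, with Agpat3 and Dgat2 added. The other Agpat3 probe was lower here, at -0.32, and called (limma over all probes). The genotype difference itself changed between the fasted and CL316243 states for 6 genes (31.8%). Gpam, Lpin1, Lpin2, Lpin3 and Dgat2 had the more positive difference after the fast, and Mogat1 the more negative, by -0.62 ± 0.21 (limma interaction, adjusted p = 0.0218). The Mogat1 call was lost under array median scaling (-0.55, limma, adjusted p = 0.0638), which left 5 and 0. Within wash batch 2 the Lpin1 change was 1.04 and not called (limma interaction, adjusted p = 0.519). Lpin3, Dgat2 and Mogat1 were not called within either batch. With the mean of its probes the Lpin3 change was 0.67 and not called (limma interaction, adjusted p = 0.0629). Without array 6 of AAKO CL316243 Agpat3 was called as well (-0.34, limma interaction, adjusted p = 0.0231). Endothelial markers were higher in the fasted group for 4 of 5 in each genotype, and their part was not tested.

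Other genes of the pathway were followed in a list of 30 that supply glycerol phosphate, activate fatty acids, handle phosphatidate or form lipid droplets, of which 29 were tested and Cds1 was too dim. None was called by limma between fed genotypes (3 had an unadjusted p under 0.05). After the fast 26 of 29 were called between genotypes (49.2% of all genes), 9 higher (21.9%) and 17 lower (27.3%) in AAKO, with a median difference of -0.36 in the list and -0.03 over all genes. The highest were Acsl4 (1.41), an acyl-CoA synthetase of arachidonic acid, Gpat4 (1.21), the glycerol phosphate acyltransferase of the endoplasmic reticulum, and Plpp1 (1.18), a lipid phosphate phosphatase. The lowest were Fitm1 (-2.19), a droplet-forming membrane protein, Gpd1 (-2.16), which makes glycerol-3-phosphate, and Gpat3 (-1.72), a further glycerol phosphate acyltransferase. After CL316243 19 of 29 were called (24.6% of all genes), 6 higher (13%) and 13 lower (11.6%), with a median of -0.25 against 0.03 over all genes. Gpat3 (-2.22), Acsl1 (-1.64), the main long-chain acyl-CoA synthetase of liver, and Gpd1 (-1.08) were lowest, and Lpgat1 (0.77), Plpp1 (0.59) and Tmem68 (0.52) highest.

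**Figure D5:**
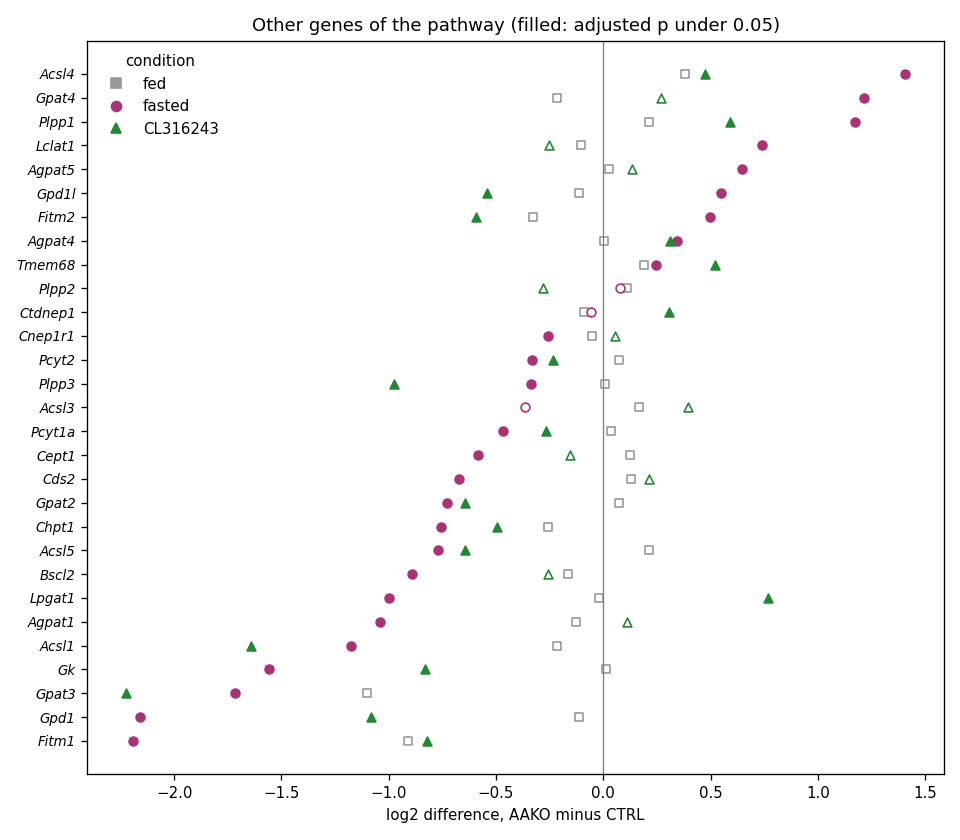
Log2 difference AAKO minus CTRL (horizontal axis) of the 29 other pathway genes tested, in fed (squares), fasted (circles) and CL316243-treated (triangles) mice, sorted by the fasted difference; filled symbols have an adjusted p under 0.05. No square is filled, and the fasted circles run from -2.19 for Fitm1 to 1.41 for Acsl4.

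Between the fasted and fed groups, which belong to different experiments, 18 of the 29 were called in CTRL (43.8% of all genes), 9 in each direction. In AAKO 24 were called (63.6%), 9 higher and 15 lower. Under quantile normalisation the CTRL split was 12 higher and 7 lower. Gpat3 (1.79), Fitm2 (1.56) and Acsl1 (1.07) rose most in CTRL, and Acsl3 (-1.78), Fitm1 (-1.06) and Agpat1 (-0.99) fell most. In AAKO Fitm2 (2.38), Gpat4 (1.74) and Plpp1 (1.26) rose most and Fitm1 (-2.34), Acsl3 (-2.31) and Agpat1 (-1.90) fell most. After CL316243 13 were called in CTRL (5 up, 8 down), against 23.1% of all genes, and 11 in AAKO (2 up, 9 down), against 31.4%. In that comparison Plpp3 (0.70), a lipid phosphate phosphatase, rose most in CTRL and Acsl1 (-1.17) fell most in AAKO. The interaction of genotype and fasting called 21 of the 29 (33.6% of all genes), 7 above 0 and 14 below, from -2.05 for Gpd1 to 1.43 for Gpat4.

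Beyond the group means, the deviation of each array from its group mean was compared between genes as a description, over 36 arrays that share these normalisations. For the 4 listed genes with the closest neighbours, the nearest of 24096 genes were Gm42151 (Pearson r 0.892), Limd2 (0.832) and Atp6v0d2 (0.812) for Mogat2, and Cps1 (0.837), Idh3b (0.820) and Npepl1 (0.810) for Dgat1. They were Dmac2 (0.820), Pgap1 (0.807) and Nudt19 (0.798) for Dgat2, and Smarca4 (0.812), Cbx5 (0.765) and Gm10228 (0.752) for Agpat2. Among the 45 pairs of listed genes r ran from -0.588 (Dgat1 with Mogat2) to 0.566 (Agpat3 with Mogat2), and Lpin1 with Lpin2 had 0.516.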

How the data were processed

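Liver RNA was labelled with Cy3 from 200 ng of total RNA, per the labels' protocols, and hybridised to 36 arrays of Agilent design 074809. The deposited scanner files hold processed signal intensities per spot, made with Agilent Feature Extraction 10.10.1.1 per the submitters' processing notes, which also name limma. Their other columns, flags for outliers, saturation and signal well above background, were used as deposited. The authors' deposited value table holds log2 values whose medians were equal within each group and ran from 6.88 to 7.01 between groups. Equal medians do not by themselves say which normalisation within groups was used. All 36 columns matched their own array best, and the log base and centring were read from that match. The deposited values served as an alternative.

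Here log2 intensities minus the 75th percentile of each array were used. Outlier spots (2701, 0.127%) were left out, no spot was saturated, and 33130 to 37200 probes an array were well above background; the number of arrays limits the precision. RefSeq accessions named 32994 of 56605 probes. A gene was its brightest probe, and was tested if well above background on at least 5 of 6 arrays of a group. limma 3.58.1 in R 4.3.3 fitted 6 group means and the wash batch to all genes at once, with two-sided tests and Benjamini-Hochberg adjustment within each contrast. The code was tested on simulated data. Alternatives were other background corrections and scalings, probe filters and summaries, wash batch, slide (8 slides) and replicate terms, and leaving out single arrays. Replicate numbers were shared between groups but did not pair the samples.

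All 10 listed genes are described. Of the pathway list the 3 highest and 3 lowest called genes of a contrast could be named, and the 3 nearest genes were named for the 4 listed genes with the highest correlation to another gene. The members and lists were chosen with earlier results of these data known. Promoter windows came from RefSeq on GRCm38.p6, and probe positions are on mm9, per the file headers' annotation columns.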

Additional observations from a re-analysis of the deposited data

Results flagged for a closer look

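In 5 of the 60 sets of 6 arrays (10 genes in 6 groups) 1 array lay apart by Dixon's test, where chance gives about 1 in 20. These were Gpam at 6.87 in AAKO fed replicate 4 (next array 6.08), Lpin3 at 1.32 in AAKO fasted replicate 3 (next 1.60), Dgat2 at 7.66 in AAKO fasted replicate 3 (next 7.40), Mogat1 at -1.45 in CTRL fed replicate 1 (next -1.80) and Mogat2 at 0.58 in CTRL fasted replicate 5 (next -1.26). AAKO fasted replicate 3 was thus the lowest array of its group for Lpin3 and the highest for Dgat2.

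The genotype difference changed between conditions, by limma's interaction test, in 15 of 30 tests. Between the fed and fasted states it changed by 3.28 for Lpin1, 0.87 for Lpin2, 0.63 for Lpin3, -1.004 for Agpat2, -0.49 for Agpat3 and -1.78 for Mogat2. Between the fed and CL316243 states it changed by -1.60 for Gpam, -0.66 for Agpat2 and -1.01 for Lpin2. Between the CL316243 and fasted states it changed by 2.68 for Lpin1, 1.89 for Lpin2, 0.43 for Lpin3, 1.57 for Gpam, 0.51 for Dgat2 and -0.62 for Mogat1. In the same order, 33.6%, 10.9% and 31.8% of all genes were called. The last comparison follows from the other interactions, so the 30 tests are not independent.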

How the results depend on the processing

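Of 1800 values under other settings 1625 kept their direction and their side of the threshold, 72 lost a call, 51 gained one and 52 changed sign; with 1 array left out the counts were 1658, 59, 28 and 55 of 1800. The only called result that changed sign was Agpat3 in fasted against fed AAKO mice, at -0.0066 with the mean of its probes. Within a wash batch, with 3 arrays in most groups, fewer genes were called by limma. In batch 1 there were 3 for fasted against CL316243 in CTRL, 0 for the interaction with CL316243 and 3 for that of fasted against CL316243. In batch 2 there were 1 for AAKO against CTRL after CL316243, and 2, 1 and 2 for the interactions with fasting, with CL316243 and of fasted against CL316243. The shares of all genes called within a batch are not given here. These counts, and those of the pathway genes below, therefore do not set the genes apart from all others.

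The differences below changed sign, and apart from the Agpat3 value none of them was called as reported. Those farthest from 0 as reported were Mogat2 between fasted genotypes (-0.94), Lpin1 after CL316243 between genotypes (0.54) and Lpin1 in fasted against CL316243 CTRL (0.45). With array median scaling they were Dgat1 after CL316243 between genotypes (-0.0032) and the Gpam interaction with fasting (0.039). In the authors' deposited values they were Dgat1 after CL316243 (-0.011), Agpat2 and Lpin1 in fasted against fed CTRL (0.11 and 0.12), Agpat2 and Mogat2 in fasted against CL316243 AAKO (0.11 and 0.058), the Gpam interaction with fasting (0.045) and the Mogat1 interaction with CL316243 (-0.00052). With normexp and quantile they were Agpat2 and Lpin1 in fasted against fed CTRL (0.074 and 0.11), Agpat2 in fasted against CL316243 AAKO (0.083) and the Gpam interaction (0.025), and with quantile alone 0.084, 0.11, 0.096 and 0.0014. With the mean of probes they were Lpin3 between fed genotypes (0.12), Lpin1 in fasted against fed CTRL (0.33), Mogat2 and Agpat3 in fasted against CL316243 mice (-0.13 in CTRL and -0.084 in AAKO), the Gpam interaction with fasting (0.23) and the Lpin3 interaction with CL316243 (-0.058). With slide as a factor they were Agpat2 and Agpat3 between fed genotypes (0.0083 and 0.0044) and Mogat2 in fasted against fed CTRL (0.059). Without both arrays that stood apart, a setting chosen after seeing the data, they were Dgat1 after CL316243 (-0.0043), Agpat2 and Mogat2 in fasted against fed CTRL (0.061 and 0.10), Lpin1 in fasted against CL316243 CTRL (-0.073) and the Gpam interaction (0.048).

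Within batch 1 they were Agpat3 between fed genotypes (0.055), Lpin1 after CL316243 between genotypes (-0.00015), Agpat2 and Mogat2 in fasted against fed CTRL (0.17 and 0.42), Mogat2 in CL316243 against fed CTRL (0.33), Lpin1 in CL316243 against fed AAKO (-0.050), Lpin1 and Lpin2 in fasted against CL316243 CTRL (-0.93 and -0.15), Agpat2 in the same comparison in AAKO (0.17) and the Gpam interaction with fasting (0.22). Within batch 2 they were Lpin1 between fed genotypes (0.19), Dgat1 and Mogat2 between fasted genotypes (-0.022 and 0.10), Lpin3 and Dgat1 after CL316243 (-0.065 and -0.041), Lpin1 in fasted against fed CTRL (1.28), Mogat2 in fasted against CL316243 AAKO (0.66), the Agpat3 and Dgat1 interactions with CL316243 (0.020 and -0.0075) and the Mogat2 interaction of fasted against CL316243 (0.56). The cause of these changes was not tested.

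With 1 array left out, values that changed sign ran as follows. Between fed genotypes Agpat2 ran from -0.081 to 0.019, Agpat3 from -0.048 to 0.040 and Lpin1 from -0.37 to 0.17. After CL316243 Dgat1 ran from -0.025 to 0.067 and Lpin3 from -0.0026 to 0.16. In fasted against fed CTRL Agpat2 ran from -0.065 to 0.061, Lpin1 from -0.54 to 0.19 and Mogat2 from -0.53 to 0.10. In CL316243 against fed mice Agpat3 (AAKO) ran from -0.0016 to 0.080, Lpin1 (AAKO) from -0.11 to 0.37 and Mogat2 (CTRL) from -0.44 to 0.041. In fasted against CL316243 mice Lpin1 (CTRL) ran from -0.073 to 0.66, Agpat2 (AAKO) from -0.13 to 0.037, and Mogat2 from -0.35 to 0.36 in CTRL and -0.49 to 0.069 in AAKO. The Gpam interaction with fasting ran from -0.15 to 0.12 and the Mogat2 interaction of fasted against CL316243 from -0.59 to 0.14.

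With a replicate block 7 genes were called between fasted genotypes and 5 after CL316243. The block added calls for Dgat2 after CL316243 (-0.26) and in its interaction with fasting (0.33), removed that of Agpat3 in fasted against fed AAKO (0.19) and changed no other. Same-numbered samples had a mean correlation of deviations from -0.0389 to 0.0379. Of the pathway genes, 9 and 6 were called after CL316243 between genotypes within batches 1 and 2, 8 and 10 in fasted against fed CTRL, 3 and 2 in CL316243 against fed CTRL, 7 and 2 in the same comparison in AAKO, and 11 in batch 2 in the interaction with fasting; the fed genotypes gave 1 with normexp and quantile. In the authors' deposited values the median of all genes in fasted against fed AAKO mice shifted by 0.107, and in fasted against CL316243 AAKO mice by 0.136.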
